A study of Mus musculus with 9 samples.

Results

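The cytosolic ribosomal protein genes encode the protein part of the ribosome that reads nuclear messenger RNAs. They were taken by symbol: names of the form Rpl or Rps followed by a number, with or without further letters, plus Rplp0, Rplp1 and Rplp2, leaving out the Rps6k kinases. Of 21720 genes counted, 86 matched. By role, 43 of them encode proteins of the large subunit, 30 proteins of the small subunit and 3 proteins of the P stalk, and these 76 are called core genes below. Another 8 are paralogs or retrogenes (Rpl3l, Rpl7l1, Rpl10l, Rpl22l1, Rpl36al, Rpl39l, Rps27l and Rps27rt). The last 2 matched by symbol only: Rps19bp1 encodes a protein that binds Rps19, and Rps23rg1 is a retrogene. The division into core genes and others was made after the table had been seen. The data are RNA-seq libraries of colon from WT female C57BL/6 J mice, 3 libraries in each of 3 groups. The Atorvastatin group was given the statin atorvastatin, an inhibitor of cholesterol synthesis, at 10 mg/kg, in daily volumes of 0.2 mL on 5 days, the first being day 3 and the last day 7. The Model group was given 5% DSS for 7 days; DSS is dextran sulfate sodium, a chemical that damages the lining of the colon and serves to induce colitis in mice. The Normal group was given the vehicle, 0.5% CMC-Na (sodium carboxymethyl cellulose), over 7 days. All doses were by gavage, per the labels. Whether the Atorvastatin mice also received DSS is not stated in the labels. Nor is it stated that each library came from its own mouse, so the p-values rest on a spread between libraries that could be technical.

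A ribosome holds nearly every one of these proteins in a single copy, so the genes are expressed in near-constant proportion to each other in most tissues. Their messenger RNAs begin with a run of pyrimidines next to the cap, the 5′ terminal oligopyrimidine motif, through which the mTOR pathway controls how actively they are translated. In the colon, the dividing cells of the crypts make many ribosomes, and ribosome output is tied to growth.

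The starts of these genes are shown because a run of pyrimidines there is a known feature of the family, though not every annotated start holds one. RefSeq promoters (GRCm38.p6, 250 bases before to 50 bases after the annotated start) were found for 64 of the ribosomal protein genes and paralogs. Stretches from 60 bases before to 20 bases after the start are printed 5′ to 3′ on the gene's strand for 5 genes that the results below turn on. Capitals mark each unbroken run of 8 or more C or T letters within 25 bases of the start.
Rps6, chr4:86857348-86857427, minus strand: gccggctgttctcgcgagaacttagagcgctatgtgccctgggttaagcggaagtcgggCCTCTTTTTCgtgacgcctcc
Rps18, chr17:33955646-33955725, minus strand: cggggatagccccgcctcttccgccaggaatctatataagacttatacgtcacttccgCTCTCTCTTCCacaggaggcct
Rps10, chr17:27635225-27635304, minus strand: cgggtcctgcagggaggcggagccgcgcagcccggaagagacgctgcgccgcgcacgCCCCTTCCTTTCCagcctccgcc
Rpl41, chr10:128549149-128549228, minus strand: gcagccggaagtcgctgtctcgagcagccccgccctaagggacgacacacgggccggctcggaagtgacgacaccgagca
Rps2, chr17:24720003-24720082, plus strand: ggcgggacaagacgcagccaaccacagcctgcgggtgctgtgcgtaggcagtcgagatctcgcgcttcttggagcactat

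Rps6, Rps18 and Rps10 have such a run across the annotated start, and the stretches of Rpl41 and Rps2 hold none at these RefSeq starts. A run of 8 or more C or T letters on the gene's strand, within 25 bases of the start, was present in 30 of 64 promoters of the family (46.9%), and in 19.4% of 27025 promoters of all genes. The letters CTTTC, which can lie inside such a run, were present in the same window in 19 of 64 (29.7%), against 6.6% of all promoters. CCGGAAG, a form of the site of ETS family factors, was present on either strand of the 300 bases in 24 of 64 (37.5%), against 9.12% of all promoters. AAGATGGC, a form of the YY1 site, was present on either strand in 5 of 64 (7.81%), against 2.88%. TATAAA was present in the 50 bases before the start, on the gene's strand, in 1 of 64 (1.56%), against 2.88%. The motifs and windows were chosen with the known features of such promoters in mind and after some of the sequences had been seen, and the CTTTC search was widened to pyrimidine runs after its result was known. The shares describe letters in a window and were not tested.

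Total estimated counts lay between 72584333 and 91737502 per library. Between libraries of a group, the median absolute log2 ratio of the counts of the family lay at 0.061 to 0.50, where counting error gives no more than 0.019, so no pair was a repeat of the same library. Genes of colonocytes held 0.475 to 0.756% of the counts and epithelial genes 1.03 to 1.52%, and all 8 genes of each list were above 0 in every library. Pancreatic acinar genes, of which 21 were in the table and 18 were above 0 in every library, made up 9.02% of all counts for Model 2, 3.89% for Model 3 and 0.0156% for Model 1. They held 0.00653 to 0.368% in Atorvastatin libraries and 0.0204 to 0.194% in Normal libraries. Small intestinal enterocyte genes held 0.190% in Model 3, 0.0823 to 0.132% elsewhere, and none of the 14 was at 0 in all libraries. In a bulk sample, fewer cells of a type and less RNA per cell cannot be told apart.

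Per transcript length, the core genes differed widely among themselves. Levels are given as CPM (counts scaled to a common library size, with TMM factors) divided by the transcript length in kilobases, as means over the 9 libraries. The median core gene stood at 422 CPM per kb. The highest levels were those of Rps14 with 1030, Rplp0 with 1018, Rplp1 with 1002, Rpl10 with 971 and Rps18 with 920 CPM per kb. Rplp0 anchors the P stalk, on which Rplp1 and Rplp2 sit as pairs and which recruits the elongation factors, and Rpl10 joins the large subunit as one of the last proteins. The third stalk gene, Rplp2, stood lower at 288 CPM per kb. At the low end, Rpl39, a small protein of the wall of the exit tunnel, stood at 7.65 CPM per kb, below every other core gene. The next lowest, Rps20, stood at 49.9 CPM per kb, for a transcript taken as 3706 nucleotides long. The length rule was settled after lengths had been seen. RefSeq names 309 pseudogenes of these genes, of which the table lists 7, and 62 of the 86 genes have at least 1, so counts of individual members are uncertain where reads fit several copies.

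**Figure D1:**
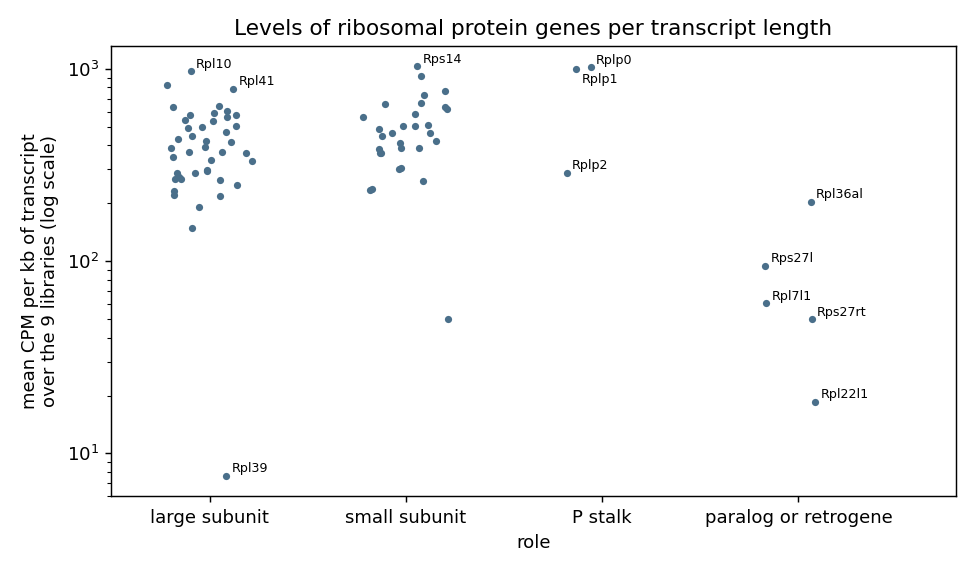
Mean level of each ribosomal protein gene over the 9 libraries in CPM per kb of transcript, on a log axis, by role, 1 point per gene. Most core genes lie between 149 and 1030 CPM per kb, Rpl39 lies at 7.65 and Rps20 at 49.9, and the 5 plotted paralogs lie between 18.6 and 204, while Rpl3l, Rpl10l and Rpl39l fall below the axis.

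The paralogs were rarer than most core genes. Rpl36al stood at 204 CPM per kb, Rps27l, which is a target of p53, at 94.7, Rpl7l1 at 60.2, Rps27rt at 49.9 and Rpl22l1 at 18.6. The 3 paralogs known for other tissues were at or near 0 and were not tested. Rpl3l, the form of heart and skeletal muscle, had at most 0.11 CPM in any library. Rpl39l, a form of the testis, had counts in Atorvastatin 2 only, at 0.06 CPM. Rpl10l, another testis form, had 0 counts in all 9 libraries, where the limit that a count of 0 allows (3 read pairs, or 12 estimated counts, per library, for counting error only) is 0.132 to 0.175 CPM. The genes are scattered, with the 76 core genes on 19 chromosomes and the most, 14, on chromosome 7.

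The 3 groups overlapped in the level of the family as a whole. The members together held 3.53, 2.92 and 2.64% of all counts in Atorvastatin 1 to 3. They held 2.49, 2.01 and 2.82% in Model libraries 1 to 3, and 2.58, 2.93 and 2.87% in Normal 1 to 3. The group means were 3.03 ± 0.45% in Atorvastatin, 2.44 ± 0.41% in Model and 2.80 ± 0.19% in Normal (SD, n = 3 each), and the ranges overlap. Model 2 held the lowest share, and with acinar genes taken out of the total it held 2.21%, still the lowest.

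Scaled to CPM, most core genes deviated to the same side in some libraries but not in all 9. The mean deviation of the core genes from their own means over the 9 libraries was 0.17, 0.02 and -0.14 (log2) in Atorvastatin 1 to 3. It was -0.09, -0.27 and 0.18 in Model libraries 1 to 3, and -0.03, 0.11 and 0.05 in Normal 1 to 3. The core genes above their own means numbered 71, 52 and 9 of 76 in Atorvastatin 1 to 3, 21, 0 and 62 in Model libraries 1 to 3, and 32, 66 and 56 in Normal 1 to 3. Model 2 and Atorvastatin 1 were thus the most one-sided, and Normal 1 was nearest to an even split. The highest and the lowest mean deviation are both those of Model libraries, the ones with the most acinar RNA, and the part of that RNA in the result was not tested.

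**Figure D2:**
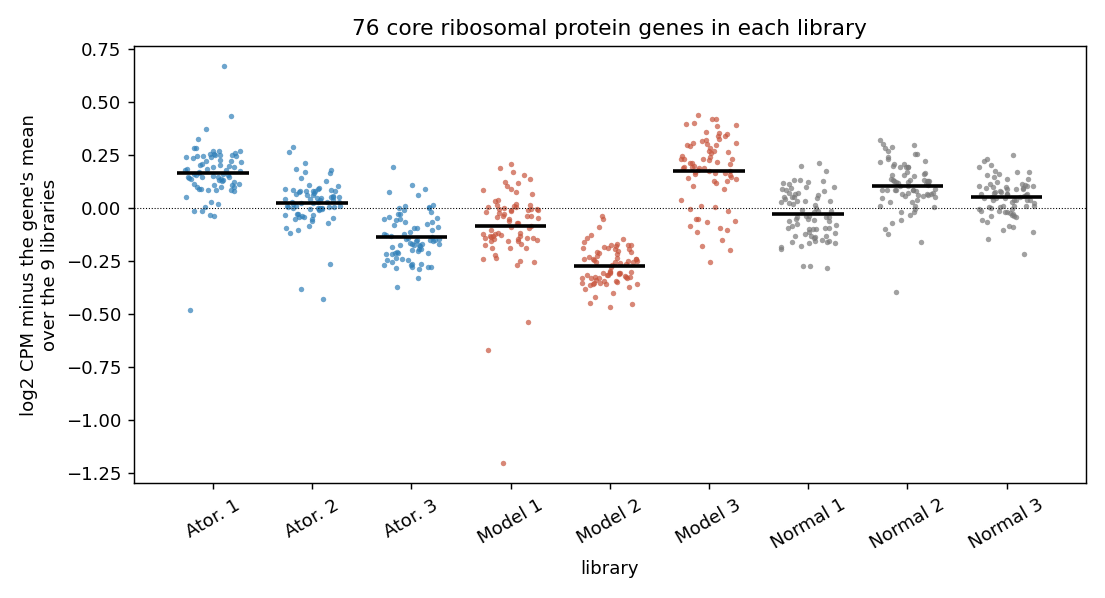
Deviation of each of the 76 core genes from its own mean over the 9 libraries (log2 CPM, 1 point per gene), by library, with the mean as a black line. The means run from -0.27 in Model 2 to 0.18 in Model 3, a wider span than between Normal libraries, which lie at -0.03 to 0.11.

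The median SD of a core gene over the 9 libraries was 0.18 (log2), and 0.11 once the family mean of each library was removed. The SD became smaller for 66 of the 76. For 11379 other genes with a mean of at least 4.68 CPM, the level of Rpl39, the median SD was 0.26. The next lowest core gene in CPM, Rpl38, stood at 75.4, so these genes were not matched to the family in level. Over the 9 libraries, the median Pearson correlation between core genes was 0.69, and 2682 of 2850 pairs were positive; this describes libraries that share their scaling, and it was not tested. The counts of the subunits kept nearly the same ratio. Summed counts of the small subunit genes over those of the large subunit genes were 0.706, 0.746 and 0.729 in Atorvastatin 1 to 3, 0.745, 0.722 and 0.722 in Model libraries 1 to 3, and 0.732, 0.725 and 0.712 in Normal 1 to 3. The groups overlap, and the lowest and highest ratio were both in Atorvastatin libraries. The same ratio of the stalk genes to the large subunit genes was 0.140, 0.143 and 0.130 in Atorvastatin, 0.153, 0.133 and 0.142 in Model, and 0.127, 0.133 and 0.136 in Normal libraries, which also overlap.

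Rps6, the small subunit protein that S6 kinases phosphorylate, followed the family most closely. Its level was 485, 457 and 406 CPM in Atorvastatin 1 to 3, 435, 361 and 503 CPM in Model libraries 1 to 3, and 433, 483 and 467 CPM in Normal 1 to 3. Its SD after removal of the family mean was 0.027 (log2), the smallest of the 76; Rps6 was picked for that value. The largest was 0.42, for Rpl41. Only 5 of 684 residuals (76 genes in 9 libraries) were beyond 0.5 in size.

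Rpl41, the smallest ribosomal protein, which lies between the subunits, had 387, 374 and 330 CPM in Atorvastatin 1 to 3, 144, 321 and 413 CPM in Model libraries 1 to 3, and 381, 381 and 371 CPM in Normal 1 to 3. Model 1 stood apart, with a residual of -1.12 (log2), and the other 8 libraries lay between 321 and 413 CPM. Rps10, a small subunit protein near the entry of the messenger RNA, had 161, 270 and 237 CPM in Atorvastatin, 141, 204 and 297 CPM in Model, and 232, 274 and 263 CPM in Normal libraries. It was low in Atorvastatin 1 (residual -0.65) and in Model 1 (residual -0.58). Rpl39 had 7.29, 3.40 and 4.07 CPM in Atorvastatin, 4.07, 3.82 and 4.28 CPM in Model, and 5.29, 4.77 and 5.15 CPM in Normal libraries, with a residual of 0.51 in Atorvastatin 1. For these genes, residuals beyond 0.5 in size fell in 1 or 2 libraries and not in a whole group. In CPM, Rpl39 is also among the members that lay lower in Model than in Normal without overlap (4.82%, against 11.7% of all genes). Within a library, the residuals went with the GC content of the transcripts to different degrees, with r from -0.51 in Model 3 to 0.59 in Atorvastatin 3 across the 76 genes, which are not independent, and from -0.24 to 0.22 across 9473 genes in all; the part of GC content in the residuals was not tested.

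**Figure D3:**
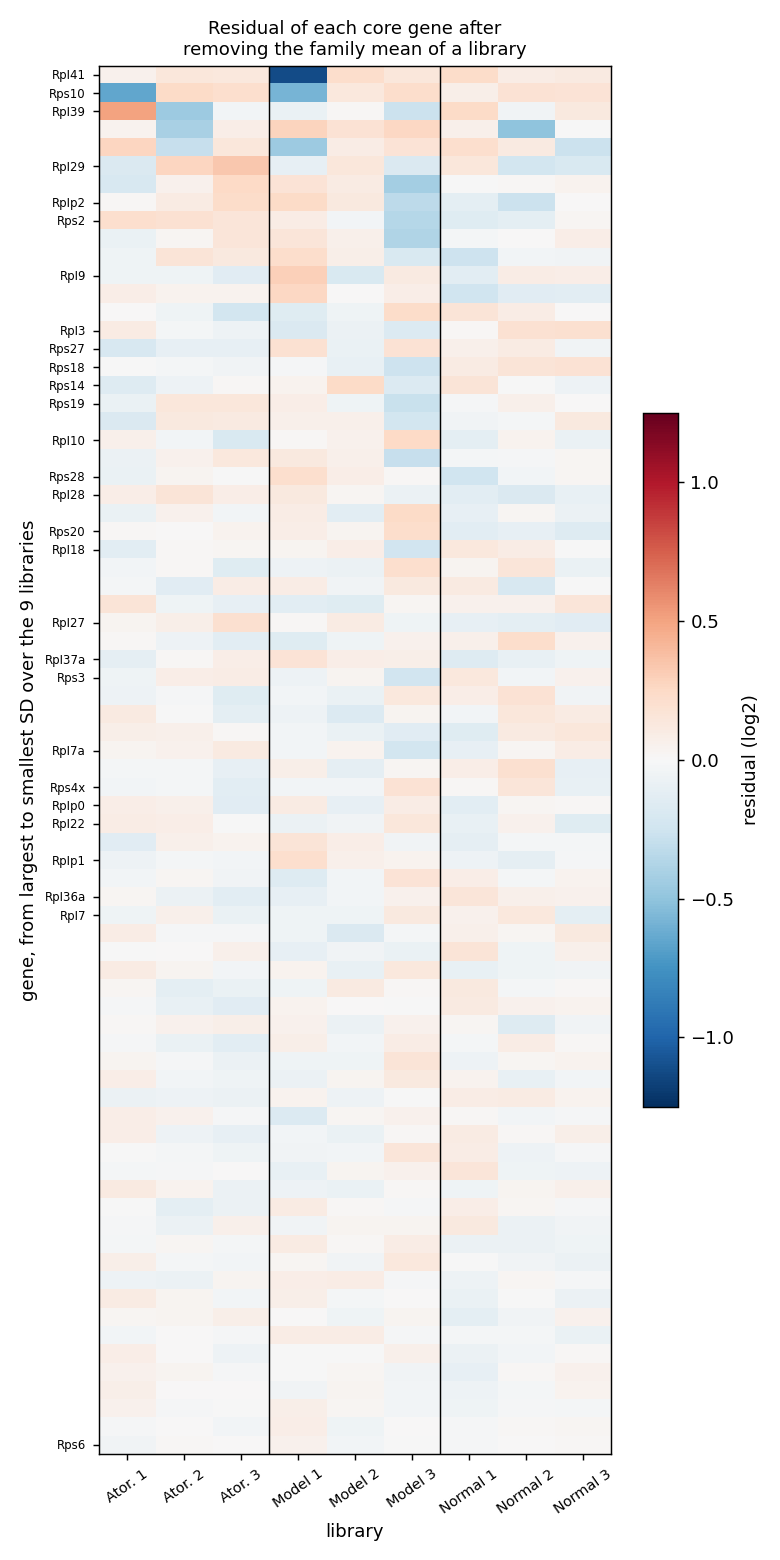
Residuals (log2) of the 76 core genes in each library after removal of the gene's mean and of the library's family mean, with genes ordered by their SD over the 9 libraries. The strongest cells are Rpl41 in Model 1 (-1.12) and Rps10 in Atorvastatin 1 (-0.65) and Model 1 (-0.58), and the rows towards Rps6 at the bottom are nearly blank; genes named in the text are labelled.

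Atorvastatin was compared with Model to ask what the statin group differed in from the DSS group. None of the 83 tested members passed an adjusted p of 0.05 (edgeR, quasi-likelihood test, two-sided, Benjamini-Hochberg adjustment over 16160 genes), and none of all genes did (0%). At an unadjusted p under 0.05 there was 1 member (1.2% of 83), against 11.8% of all genes, and DESeq2 and limma-voom also called 0 members. The median log2 fold change of the members was 0.06, with 59 of 83 above 0, against -0.03 over all genes. It was 0.07 for the 43 large subunit genes and 0.03 for the 30 small subunit genes. The sign rested on single libraries: the median was -0.04 without Model 2, 0.21 without Model 3, -0.02 without Atorvastatin 1 and 0.15 without Atorvastatin 3.

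The member with the smallest p was Rps2, a small subunit protein at the entry of the messenger RNA channel. It had 848, 758 and 659 CPM in Atorvastatin 1 to 3, 655, 529 and 578 CPM in Model libraries 1 to 3, and 578, 645 and 691 CPM in Normal 1 to 3. The Atorvastatin and Model libraries did not overlap, by a narrow margin, and the log2 fold change was 0.36 ± 0.16 (SE; adjusted p = 0.422, edgeR). The other members with the largest positive values were Rpl41 with 0.31 ± 0.31, Rps19bp1 with 0.30 ± 0.16, Rpl39 with 0.28 ± 0.28 and Rpl29 with 0.27 ± 0.12 (log2 fold change ± SE). The value of Rpl41 was -0.01 without Model 1. Among the largest negative values were those of Rps27 with -0.18 ± 0.18, Rps27l with -0.11 ± 0.17, Rpl9 with -0.10 ± 0.22 and Rpl10 with -0.09 ± 0.22. None of these passed the test. In 5 members every Atorvastatin library lay above every Model library (6.02% of 83): Rps2, Rps3, Rps19, Rpl7a and Rps19bp1, of which Rps3, Rps19 and Rpl7a were singled out after their values were seen. No member lay lower without overlap. Over all genes these shares were 7.90% and 7.70%.

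Atorvastatin was also compared with Normal. None of the 83 members passed the threshold (edgeR), against 1.67% of all genes (1.32% higher and 0.347% lower), and 0 had an unadjusted p under 0.05, against 15.2% of all genes; DESeq2 and limma-voom called 0 as well. The median log2 fold change of the members was -0.02, with 37 of 83 above 0, against 0.01 over all genes. Among the largest positive values were Rps2 with 0.24 ± 0.16, Rpl28 with 0.22 ± 0.14, Rplp2 with 0.22 ± 0.12 and Rpl29 with 0.21 ± 0.12. The largest negative values were Rps23rg1 with -0.26 ± 0.40, Rpl22l1 with -0.23 ± 0.24, Rps27 with -0.20 ± 0.18, Rps10 with -0.20 ± 0.27 and Rps18 with -0.19 ± 0.15. Rplp2, of the stalk, had 137, 132 and 129 CPM in Atorvastatin 1 to 3, 135, 109 and 109 CPM in Model libraries 1 to 3, and 109, 108 and 125 CPM in Normal 1 to 3. Its Atorvastatin libraries all lay above its Normal libraries, as did those of Rpl27 (2.41% of 83, against 13.5% of all genes). Rps27 and Rpl18 lay lower in Atorvastatin without overlap (2.41%, against 11.2% of all genes). Rpl27 and Rpl18 were singled out after their values were seen.

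The comparison of Model with Normal asks what differed under DSS. None of the 83 members passed the threshold (edgeR), against 5.46% of all genes (4.37% higher and 1.10% lower). At an unadjusted p under 0.05 there was 1 member (1.2%), against 20.9% of all genes, and DESeq2 and limma-voom called 0 members. The median log2 fold change was -0.09, with 18 of 83 members above 0, against -0.00090 over all genes. Without Model 2 the median was 0.0086, and without Model 3 it was -0.21, so the sign changed without a single library here too. The Atorvastatin against Model comparison uses the same Model libraries, and opposite medians of the comparisons are not independent of each other.

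The smallest p was that of Rps18, a protein of the head of the small subunit. It had 570, 511 and 449 CPM in Atorvastatin libraries, 476, 397 and 481 CPM in Model libraries, and 536, 615 and 599 CPM in Normal libraries. Every Model library lay below every Normal library, and the log2 fold change was -0.37 ± 0.15 (SE; adjusted p = 0.204, edgeR). Rpl3, a large subunit protein near the peptidyl transferase centre, had 655, 621 and 792 CPM in Model, 778, 970 and 937 CPM in Normal, and a log2 fold change of -0.38 ± 0.18 (adjusted p = 0.282, edgeR). Here Model 3 lay above Normal 1, so the groups overlap. Rps23rg1 with -0.42 ± 0.40, Rpl41 with -0.37 ± 0.31 and Rpl39 with -0.32 ± 0.28 completed the largest negative values. Without Model 1 the value of Rpl41 was -0.04, and that of Rps10 was -0.03, against -0.26 ± 0.27 with it. With Model 1 as the only Model library, that is without Model 2 and Model 3, Rpl41 passed the threshold (log2 fold change -1.39, adjusted p = 0.0136, edgeR), where the lone library is assumed to vary like the other groups. Among the largest positive values were Rps20 with 0.16 ± 0.16, Rpl37a with 0.12 ± 0.13 and Rps28 with 0.09 ± 0.14. No member lay higher in Model without overlap, and 4 lay lower (4.82%): Rps18, Rps3, Rpl18 and Rpl39. Over all genes these shares were 14.0% and 11.7%.

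**Figure D4:**
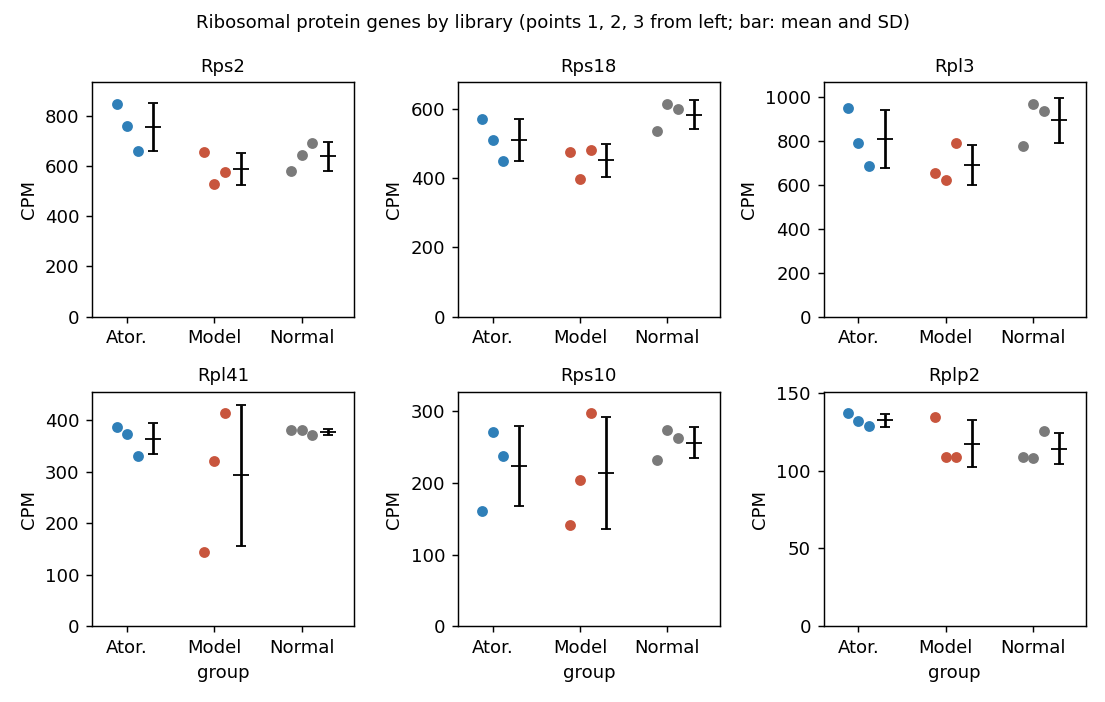
CPM of 6 ribosomal protein genes in each library, with libraries 1, 2 and 3 from left in each group and the group mean with its SD (n = 3) beside them; axes start at 0. Rps2 separates Atorvastatin (659 to 848) from Model (529 to 655), and Rps18 separates Model (397 to 481) from Normal (536 to 615). Rpl41 is low in Model 1 (144), and Rps10 in Atorvastatin 1 (161) and Model 1 (141).

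The width of the intervals bounds what these libraries could show. The 95% interval of the log2 fold change lay within 1 of 0 on both sides for 81 of 83 members in Atorvastatin against Model, 82 in Atorvastatin against Normal and 81 in Model against Normal. The median SE of a member's log2 fold change was 0.16 in each comparison.

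The paralogs gave no shift against their parent genes that held in every comparison. Count ratios within a library need no scaling; they compare libraries, not the levels of the genes. Rpl22l1 over Rpl22 was 0.0678, 0.0460 and 0.0559 in Atorvastatin, 0.0485, 0.0801 and 0.0541 in Model, and 0.0819, 0.0596 and 0.0762 in Normal libraries. The groups overlap, with Model 2 near the highest. Rps27l over Rps27 was 0.191, 0.181 and 0.192 in Atorvastatin, 0.139, 0.226 and 0.185 in Model, and 0.192, 0.157 and 0.162 in Normal libraries, with both extremes in Model. Rpl36al over Rpl36a was 0.843, 0.828 and 0.910 in Atorvastatin, 0.826, 0.897 and 0.797 in Model, and 0.795, 0.646 and 0.804 in Normal libraries. There every Atorvastatin library lay above every Normal library, which was not tested. In level rather than ratio, 13.5% of all genes did so too. Rps27rt over Rps27 was 0.0732, 0.0808 and 0.0711 in Atorvastatin, 0.0697, 0.0643 and 0.0701 in Model, and 0.0699, 0.0746 and 0.0605 in Normal libraries. Here the Atorvastatin libraries lay above the Model libraries by a narrow margin, also not tested, as did 7.90% of all genes in level. Rpl7l1 over Rpl7 (0.125 to 0.167 over all libraries) overlapped between all groups. Rpl3, Rpl7, Rpl10, Rpl22, Rpl36a, Rpl39, Rps27 and Rps4x, the parents, had adjusted p-values of at least 0.282 in the 3 comparisons (edgeR).

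Ribosomal proteins with other symbols include Rpsa and Fau, and neither passed the threshold. Rpsa, also known as a laminin receptor, had 1049, 838 and 682 CPM in Atorvastatin, 767, 615 and 877 CPM in Model, and 778, 840 and 813 CPM in Normal libraries. The groups overlap. Fau, which is made as a fusion to a ubiquitin-like protein, had log2 fold changes of -0.0039 ± 0.12 in Atorvastatin against Model and -0.09 ± 0.12 in Model against Normal. The smallest adjusted p of the pair over the 3 comparisons was 0.735, for Fau in Model against Normal (edgeR).

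Genes that build ribosomes gave medians farther from 0 than the ribosomal protein genes did; the difference between the lists was not tested. All 45 listed assembly factors, the nucleolar proteins that process ribosomal RNA and put subunits together, were tested. In Atorvastatin against Model their median log2 fold change was 0.42, with 44 of 45 above 0, and 20 had no overlap between groups, all higher (7.90% of all genes). None passed the threshold in edgeR, and 22 of 45 had an unadjusted p under 0.05, against 11.8% of all genes. DESeq2 called 6 of the 45, and 321 of all 16160 genes. The count above 0 was 44 without Model 2, 43 without Model 3 and 41 without both. In Model against Normal the median was -0.29, with 2 of 45 above 0; 2 fell, against 1.10% of all genes, and 20 lay lower without overlap, against 11.7%. The pair that fell were Nolc1, a chaperone of small nucleolar ribonucleoproteins, and Ncl, which encodes nucleolin. In Atorvastatin against Normal the median was 0.11, with 35 of 45 above 0, but -0.04 with 19 above 0 without Atorvastatin 1. There Noc4l, which acts in the assembly of the small subunit, rose (log2 fold change 0.89 ± 0.18, adjusted p = 0.0458, edgeR), against 1.32% of all genes that rose.

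Nolc1 had 52.9, 37.3 and 54.0 CPM in Atorvastatin, 26.6, 28.8 and 29.5 CPM in Model, and 51.3, 40.0 and 48.7 CPM in Normal libraries. The log2 fold change in Model against Normal was -0.72 ± 0.16 (adjusted p = 0.0394, edgeR). Ncl, which was singled out after its values were seen, had 376, 311 and 374 CPM in Atorvastatin, 255, 258 and 205 CPM in Model, and 337, 396 and 417 CPM in Normal libraries. Its log2 fold change in Model against Normal was -0.68 ± 0.15 (adjusted p = 0.0401, edgeR). For both genes all Model libraries lay below all others. Noc4l had 24.4, 17.3 and 22.8 CPM in Atorvastatin, 16.3, 16.1 and 15.7 CPM in Model, and 11.9, 9.60 and 13.4 CPM in Normal libraries. Its Model libraries lay below all Atorvastatin and above all Normal libraries, so it is among the 2 of 45 above 0 in Model against Normal (log2 fold change 0.46 ± 0.18, adjusted p = 0.172, edgeR). These calls were lost in several other fits, given with the processing. In Model 3 the mean deviation was -0.17 (log2) for assembly factors and 0.18 for core ribosomal proteins.

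Cell cycle genes had fold changes of the same signs as most assembly factors. All 15 had a positive log2 fold change in Atorvastatin against Model (median 0.94), with none past the threshold (edgeR) and all 15 at an unadjusted p under 0.05, against 11.8% of all genes. All 15 were negative in Model against Normal (median -0.51), where Plk1, a mitotic kinase named after its values were seen, fell (-0.67 ± 0.14, adjusted p = 0.0299, edgeR). The mean deviation of cell cycle genes was 0.76, 0.18 and 0.22 (log2) in Atorvastatin 1 to 3, -0.61, -0.72 and -0.11 in Model libraries 1 to 3, and 0.27, -0.15 and 0.16 in Normal 1 to 3. The part of cell cycle genes in the values of the assembly factors was not tested.

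Markers of other cell types also differed between Model and Normal libraries, where the assembly factors had their negative median. Of 10 neutrophil and monocyte genes, 9 rose (median log2 fold change 3.60), against 4.37% of all genes (edgeR), and together they held 0.00355 to 0.00968% of counts in Model and 0.000392 to 0.000897% in Normal libraries. Of 8 fibroblast genes, 6 rose (median 1.37, edgeR), with 0.0988 to 0.187% of counts in Model and 0.0532 to 0.0672% in Normal libraries. None of 10 smooth muscle genes passed (edgeR); 9 were below 0 (median -0.39), with 0.214 to 0.436% of counts in Model and 0.380 to 0.529% in Normal libraries. In Atorvastatin against Model none of these genes passed (edgeR), and the medians were -0.03 for neutrophil and monocyte, -0.15 for fibroblast and -0.39 for smooth muscle genes. Of 8 colonocyte genes none passed there (edgeR), and 5 had an unadjusted p under 0.05, against 11.8% of all genes. Their median was -0.94, but 2 of the 8 were above 0, and the values ran from -1.58 to 4.24. The 8 together held 0.501 to 0.654% of counts in Atorvastatin and 0.475 to 0.569% in Model libraries, which overlap. All 11 lymphocyte genes were below 0 in Atorvastatin against Model (median -0.41), with none past the threshold (edgeR). In Atorvastatin against Normal, 4 of the 10 neutrophil and monocyte genes rose (median 3.31), against 1.32% of all genes (edgeR). Of the 8 fibroblast genes 5 rose in that comparison (median 1.21, edgeR). No smooth muscle gene passed in it (edgeR), and all 10 were below 0 (median -0.85). None of the genes of these lists was at 0 in all libraries; 6 of the 10 neutrophil and monocyte genes, and every gene of the other lists, were above 0 in every library. The part of these cell types in the values of the ribosomal protein genes and assembly factors was not tested.

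Other lists of translation genes gave few calls. For 78 mitochondrial ribosomal protein genes, the median log2 fold change was 0.21 in Atorvastatin against Model, 0.08 in Atorvastatin against Normal and -0.13 in Model against Normal. Of these 78 only 1, Mrps9, passed in any comparison. It fell in Model against Normal, where 1.10% of all genes fell, so the share of calls was near that of all genes. In Atorvastatin against Model, 66 of 78 were above 0. Without overlap 21 lay higher and 0 lower, against 7.90% and 7.70% of all genes. In Model against Normal, 61 were below 0. Without overlap 15 lay lower and 2 higher, against 11.7% and 14.0%. An unadjusted p under 0.05 (edgeR) was found for 14 and 8 of 78 in that order, against 11.8% and 20.9% of all genes. Mrps9 had 21.0, 24.0 and 22.2 CPM in Model, against 30.8, 29.9 and 30.9 CPM in Normal libraries (-0.45 ± 0.11, adjusted p = 0.0493, edgeR). The list of 12 genes for elongation also holds Eef1e1, Eef2k and Tpt1, named here because they are not elongation factors themselves. None of these 12 genes or of 36 initiation factors passed in any of the comparisons in edgeR. Nor did any of 14 RNA polymerase I genes (of 17 listed) or of 21 genes that control the translation of ribosomal protein messenger RNAs. The medians of these lists in Atorvastatin against Model were 0.13, 0.10, 0.25 and 0.05, in that order. In Model against Normal they were -0.06, -0.08, -0.30 and -0.01. Of the 14 RNA polymerase I genes, 12 were above 0 in Atorvastatin against Model. There 5 had an unadjusted p under 0.05 (edgeR), against 11.8% of all genes, and 4 lay higher without overlap, against 7.90%. In Model against Normal, 10 of the 14 were below 0. There 3 had an unadjusted p under 0.05 (edgeR), against 20.9% of all genes, and 4 lay lower without overlap, against 11.7%. Of 14 host genes of small nucleolar RNAs only Snhg4 was in the table, and it did not pass in edgeR.

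**Figure D5:**
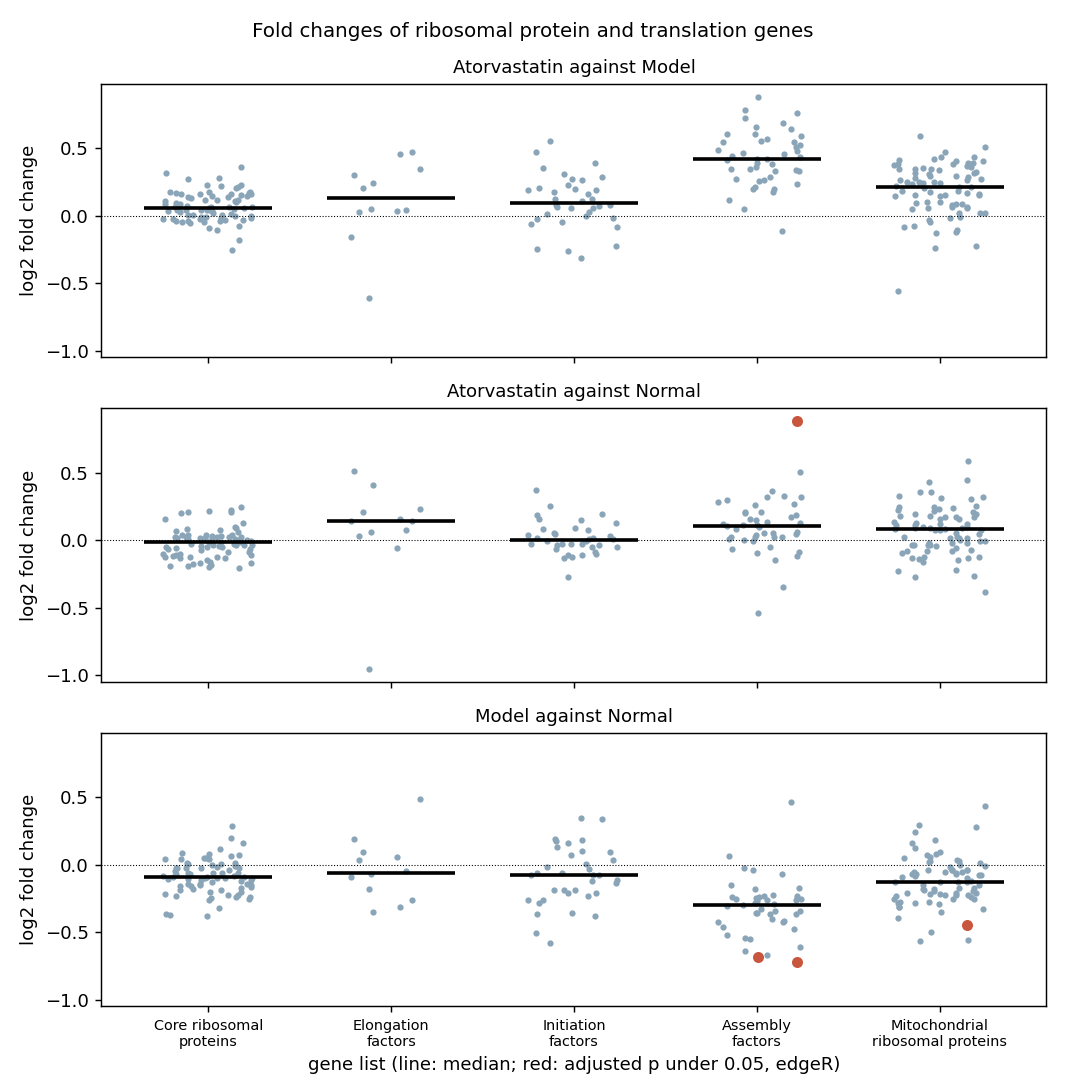
Log2 fold changes of the 76 core ribosomal protein genes and of 4 lists of translation genes in the 3 comparisons, 1 point per gene, with medians as lines and genes past the threshold (edgeR) in red. The core genes stay near 0, and assembly factors have medians of 0.42 in Atorvastatin against Model and -0.29 in Model against Normal.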

How the data were processed

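The table the authors deposited gives 1 estimated count, whole and unscaled, for each gene in 9 libraries; per the labels, each started from 1.3 µg of RNA. bcl2fastq 2.0, HISAT2, StringTie and DESeq2 and the builds rn6 and mm39 appear in the submitters' processing notes, with no roles. Low values pile up at 4 (1997 values of 4 against 346 of 1), so 1 read pair was taken as 4 estimated counts. The table's coordinates were read as mm39, since none of the 86 starts is that of GRCm38. With R 4.3.3 and edgeR 4.0.16, filterByExpr left 16160 genes, which were scaled by TMM and fitted over all 9 libraries by quasi-likelihood, the only term being group. The SE is the absolute log2 fold change divided by the square root of F, and 95% intervals use the t distribution of the fit. Limma 3.58.1 (voom) and DESeq2 1.42.0 were alternatives. The replicate numbers were not taken to pair libraries. Lengths and GC contents are those of the shortest principal coding transcript in the reference annotation. The members and gene lists were chosen with earlier results of these data known. Members named are the 5 largest changes each way per comparison with at least 1 CPM, the stalk genes, paralogs with their parents and the 5 highest levels per length, plus, from each other list, the called gene with the smallest p; other names are marked, and a few genes named by this rule are left out here. List genes absent from the table were not analysed here. Python 3.11.15 with matplotlib 3.10.9 drew the figures.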

Additional observations from a re-analysis of the deposited data

How the results depend on the processing

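Under all alternatives but 1, no ribosomal protein gene passed the threshold in any comparison; leaving out Model 2 and Model 3 together gave 1 (Rpl41, Model against Normal). The median log2 fold change of the members in Atorvastatin against Model was 0.31 with library size alone as the scaling, where the median of all genes was 0.21. Leaving out each library in turn, it ranged from -0.04 to 0.21 in Atorvastatin against Model, from -0.09 to 0.03 in Atorvastatin against Normal and from -0.21 to 0.0086 in Model against Normal. Of 2070 alternative values of single genes, 129 had the other sign with no call in either fit, and 1 gained a call. Calls in the lists of other translation genes were less steady. They numbered 0 in Atorvastatin against Model, 1 in Atorvastatin against Normal and 3 in Model against Normal as reported. With DESeq2 they were 7, 4 and 13 in that order. In Atorvastatin against Normal and Model against Normal, limma-voom gave 0 and 1, a fit to only the 2 groups compared 0 and 1, the replicate number as a block 0 and 0, and leaving out Model 2 and Model 3 together 0 and 0; leaving out each library gave 0 to 2 and 0 to 3. The cause was not tested. With the replicate number as a block, 0 members were called, and calls over all genes numbered 0, 104 and 402, against 0, 270 and 883. Libraries of the same number had deviations correlated at -0.33 to 0.27, against -0.26 to 0.30 for other numbers. Over all genes, DESeq2 called 321, 1056 and 1966, limma-voom 0, 141 and 702, and leaving out a library 0 to 1, 17 to 382 and 164 to 1164. Dixon's outlier test was not applied to groups of 3 libraries.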
